A study of Mus musculus with 8 samples.

Results

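The protocadherins are a large family of cadherin-type adhesion receptors in the mammalian brain, and H4K12la, lactylation of lysine 12 of histone H4, was examined here at their genes in mouse brain cells. The genes were chosen by name and biotype: every protein-coding gene of the GRCm38 RefSeq annotation with a symbol starting with Pcdh, which gave 69 of 21887 protein-coding genes. They fell into 57 genes of the 3 clusters of chromosome 18 (14 Pcdha, 22 Pcdhb and 21 Pcdhg genes) and 12 single genes elsewhere, 2 of which, Pcdh1 and Pcdh12, also lie on chromosome 18 outside the clusters. A peak was counted for a gene when it overlapped the gene or the 2 kb on either side of it, and a peak shared by several cluster genes was counted once.

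The mark was profiled by CUT&Tag, in which an antibody directs the Tn5 transposase to cut and tag chromatin next to the modified histone, in 8 libraries of 4 groups with 2 libraries each. The groups were microglia of 5XFAD mice, microglia of WT mice, total brain cells of 5XFAD mice and total brain cells of WT mice. 5XFAD mice carry mutated human transgenes driven by the neuronal Thy1 promoter and are a model of amyloid deposition; the labels give neither age nor sex. Brains without cerebellum of all mice were dissociated with enzymes and cleared of myelin, and microglia were then taken with magnetic beads against CD11b, a surface protein also carried by other myeloid cells, so total cells include microglia and the cells that survive dissociation. The labels do not say whether libraries of 1 group came from separate animals, so p-values measure only the spread between these libraries. In such bulk samples, fewer cells of a type and less of the mark per cell cannot be told apart.

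Protocadherins bind each other in trans between cells, like with like. In the clusters each neuron picks a few promoters, with CTCF and cohesin looping distant enhancers to the promoter that is chosen, and the resulting surface code lets sister branches of a neuron recognise and avoid one another. Each Pcdha or Pcdhg gene consists of its own large first exon spliced to short constant exons shared at the end of the cluster, whereas Pcdhb genes are single-exon and share no constant part. The single protocadherins are encoded at separate loci and include Pcdh15, which pairs with Cdh23 in the tip link of inner-ear hair cells, Pcdh19, an X-linked epilepsy gene, and Pcdh12, an endothelial adhesion protein.

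The peak lists held 29947 and 41783 peaks in 5XFAD microglia, 22300 and 33500 in WT microglia, 32967 and 22807 in 5XFAD total cells, and 25271 and 22543 in WT total cells. The lists carry no read counts, so sequencing depth is unknown and a gene with no peak is a gene at which none is listed. Microglia peaks were wider, with medians of 580 to 735 bp per library, against 287 to 366 bp for total cells. Defining microglial genes separated the preparations: summed over 12 microglial markers there were 35 to 56 peaks per microglia library and 4 to 21 per total cell library. Neuronal markers were sparse in both, with 1 to 3 peaks over 10 genes in microglia and 3 to 12 in total cells, and Snap25, Tubb3, Slc17a7, Gad1, Gad2 and Nefl had no peak in any library. Astrocyte markers held 14 to 20 peaks per microglia library and 6 to 16 per total cell library. Oligodendrocyte markers held 9 to 19 and 1 to 13, and vascular markers 14 to 21 and 3 to 14. These lists thus also ran higher in microglia, with ranges that overlapped or touched.

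The 12 single protocadherin genes carried almost all of their peaks in total cells. Distinct peaks at these genes numbered 0 and 2 in 5XFAD microglia, 1 and 3 in WT microglia, 12 and 12 in 5XFAD total cells, and 17 and 22 in WT total cells, or 1.5 ± 1.29 in microglia against 15.75 ± 4.79 in total cells (SD, n = 4 each). The 4 microglia libraries lay below all 4 total cell libraries, although the microglia lists were on average longer. Per 10000 peaks of the list, the values were 0 and 0.479 in 5XFAD microglia, 0.448 and 0.896 in WT microglia, 3.64 and 5.26 in 5XFAD total cells, and 6.73 and 9.76 in WT total cells. Over the 3.84 Mb of their windows, the single genes held 0 to 0.781 peaks per Mb in microglia and 3.12 to 5.72 in total cells. All protein-coding windows together held 16.4 to 30.6 peaks per Mb in microglia and 16.8 to 24.8 in total cells. The pooled windows of the single genes thus held fewer peaks per Mb in both preparations. Most of the pooled length lay at Pcdh15 (1560 kb), Pcdh9 (883 kb), Pcdh11x (624 kb) and Pcdh7 (421 kb). The pooled density therefore does not describe each gene. In total cells 41.7 to 58.3% of the single genes had a peak, against 44.6 to 51.9% of all genes. In microglia 0 to 25% of the single genes had one, against 42.4 to 56.1% of all genes.

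**Figure D1:**
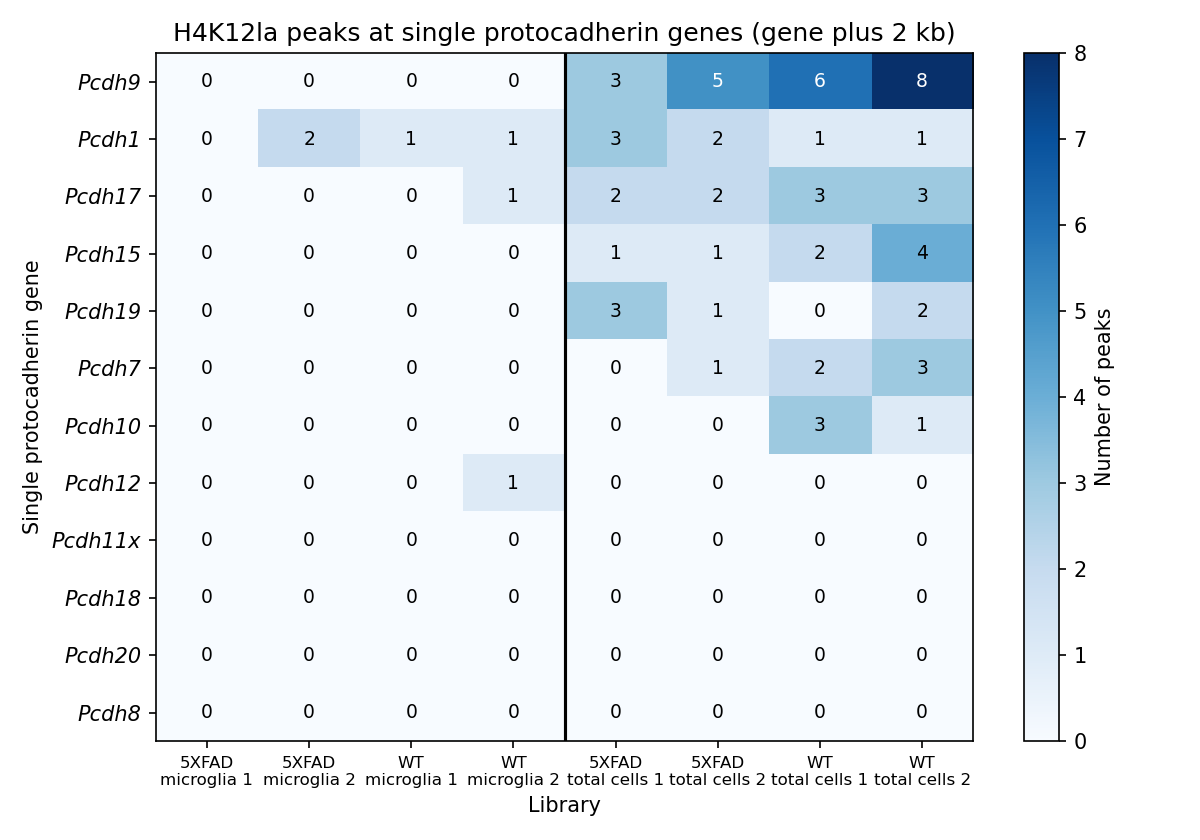
Number of H4K12la peaks at each of the 12 single protocadherin genes (rows) in each of the 8 libraries (columns, 4 microglia libraries left of the line and 4 total cell libraries right of it); darker cells hold more peaks. Pcdh9 has 3 to 8 peaks in total cell libraries and 0 in microglia libraries, and 4 genes have none in any library.

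Of the 12 single genes, 0 and 1 had a peak in 5XFAD microglia, 1 and 3 in WT microglia, 5 and 6 in 5XFAD total cells, and 6 and 7 in WT total cells. The number of peaks per gene was compared between microglia and total cells with an exact two-sided permutation test over the 70 ways of dividing 8 libraries into 4 and 4, whose smallest possible p is 0.0286. Over all 14445 genes with a peak in any library, none passed the Benjamini-Hochberg threshold of 0.05, the lowest adjusted p being 0.287. At the unadjusted threshold, 3 of the 43 protocadherin genes tested had fewer peaks in microglia (Pcdh9, Pcdh15 and Pcdh17) and 0 had more, against 3.43% of all genes tested with fewer and 6.51% with more. The median difference in peaks per gene, microglia minus total cells, was -1.5 over the 8 single genes tested and 0.25 over all genes. Long genes more often had fewer peaks in microglia: among genes of at least 75.1 kb, the median length of the single protocadherin genes, 11.0% of the 2897 tested had fewer and 7.32% had more, with a median difference of -0.25. Pcdh9, Pcdh15 and Pcdh17 are 3 of the 6 single genes of that length, and the part of gene length in the result was not tested further. Leaving out any 1 microglia library left Pcdh17 as the only one of the 3 genes below 0.05, with p = 0.0571 for Pcdh9 and 0.0857 for Pcdh15 (exact permutation of 3 against 4), although neither had a peak in microglia. With groups of unequal size, putting the largest total cell counts of these 2 genes in the group of 3 gives a larger difference than the observed one. Their p-values thus rose without any overlap of the preparations. Leaving out 1 total cell library kept all 3 genes.

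Pcdh9, a non-clustered protocadherin of the forebrain, had the largest number of peaks among the single genes, though not per length: summed over the 8 libraries it had 2.49 peaks per 100 kb of its window, against 36.5 at Pcdh1 and 11.2 at Pcdh17. Pcdh9 (gene 211712, chr14:93013700-93892834, 879 kb) had 0 and 0 peaks in 5XFAD microglia, 0 and 0 in WT microglia, 3 and 5 in 5XFAD total cells, and 6 and 8 in WT total cells (p = 0.0286, exact permutation; adjusted p = 0.287). All 4 total cell libraries had at least 3 peaks and no microglia library had 1. Its 22 peaks merged into 12 regions, of which 4 were found in 3 of the 4 total cell libraries and 6 in 1 library each. One of the recurrent regions, chr14:93825894-93826473, lay 64.2 kb downstream of the start site of the RefSeq promoter table, which is 2.15 kb inside the outer end of the gene, and ranked high in its lists: its score percentile, the share of a library's peaks with a lower score, was 87.7 in 5XFAD total cells 1, 55.4 in 5XFAD total cells 2 and 77.9 in WT total cells 2. The region at chr14:93039338-93040107, near the far end of the gene and 851 kb from the start, had percentiles of 7.47 in 5XFAD total cells 2, and 92.7 and 45.6 in the WT total cell libraries. The regions at chr14:93499000-93499277 and chr14:93543564-93543979, 391 kb and 347 kb from the start, were also shared by 3 total cell libraries.

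**Figure D2:**
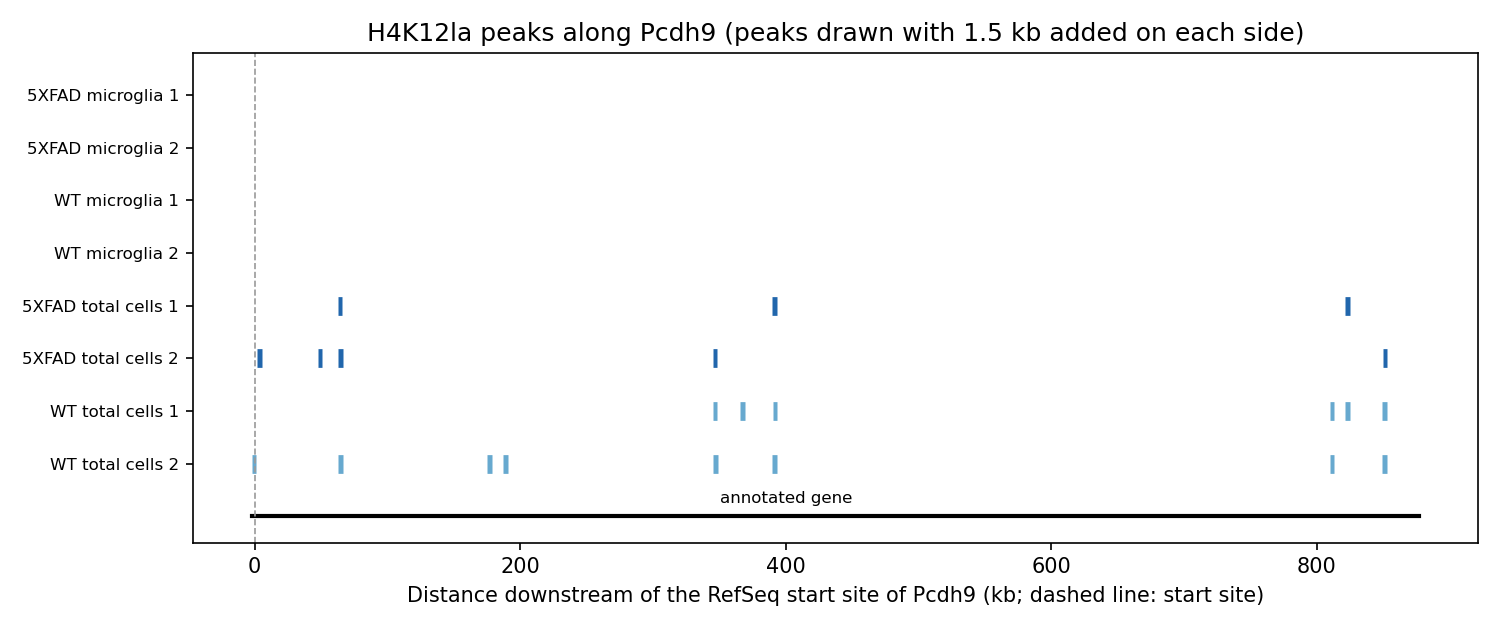
H4K12la peaks along Pcdh9 in the 8 libraries (rows), by distance from the RefSeq start site in kb; each bar is 1 peak. Peaks are spread over the gene in the 4 total cell libraries, with 3 to 8 each, and there are none in the 4 microglia libraries.

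Pcdh15 (gene 11994, chr10:73096277-74649831, 1550 kb) was the other gene with a peak in every total cell library and in no microglia library. It had 1 and 1 peaks in 5XFAD total cells and 2 and 4 in WT total cells, against 0 in each of the 4 microglia libraries (p = 0.0286, exact permutation; adjusted p = 0.287). These peaks recurred little: of 7 regions, 6 were listed in 1 library each, and only chr10:74448437-74448733 was in more, namely in 5XFAD total cells 1 and WT total cells 2. Genes with a peak in all 4 total cell libraries and none in microglia were thus 2 of 69 protocadherins, against 0.982% of all protein-coding genes and 3.56% of genes of at least 75.1 kb. The opposite call, all 4 microglia and no total cell library, was made for 0 of 69, against 1.20% of all genes.

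Cdh23, the hair-cell partner of Pcdh15, was marked the other way round. It had 18 and 24 peaks in 5XFAD microglia, 14 and 25 in WT microglia, 8 and 2 in 5XFAD total cells, and 5 and 6 in WT total cells (p = 0.0286, exact permutation; adjusted p = 0.287). Every microglia library had more Cdh23 peaks than any total cell library, while Pcdh15 had peaks in total cells alone.

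Pcdh17, which acts in axon outgrowth and synapse organisation of corticobasal circuits, had its total cell peaks close together behind the start. Pcdh17 (gene 219228, chr14:84443563-84537565, 94 kb) had 0 and 0 peaks in 5XFAD microglia, 0 and 1 in WT microglia, 2 and 2 in 5XFAD total cells, and 3 and 3 in WT total cells (p = 0.0286, exact permutation; adjusted p = 0.287). Total cells had more peaks in every library. Of its 6 regions marked in total cells, 4 fell between 2.73 and 5.03 kb downstream of the start, and the most widely shared, chr14:84446953-84447622, was in 3 of the 4 total cell libraries. The region at chr14:84454227-84454474, 10.7 kb downstream, was in both WT and neither 5XFAD total cell library, a call made for 3.30% of all regions.

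Peaks at the start sites themselves were rare. The promoter window, 250 bases before to 50 after the RefSeq start, was available for 9 of the 12 single genes, and a peak overlapped it at Pcdh17 in WT microglia 2 alone and at Pcdh9 in WT total cells 2 alone. Over 17492 genes with such a window, 29.3% and 36.4% had a promoter peak in the 5XFAD microglia libraries, 23.5% and 31.9% in WT microglia, 32.3% and 26.6% in 5XFAD total cells, and 27.6% and 25.8% in WT total cells. For Pcdh15 this window lies at a start 726 kb inside the outer end of the gene. The 7 promoters without a peak held a median of 14 CpG dinucleotides (4 to 24), against 13 over all genes, with 24 at Pcdh10, 23 at Pcdh18 and 4 at Pcdh20, and 3 of the 7 were below the median of all genes. The 2 promoters with a peak are shown because they hold the only start-site peaks of single genes with a sequence. These are the 250 bases before the start (RefSeq, GRCm38.p6), Pcdh17 from chr14:84443313-84443562 on the + strand and Pcdh9 from chr14:93890680-93890929 on the - strand, with the bases under the peak in capitals.
Pcdh17: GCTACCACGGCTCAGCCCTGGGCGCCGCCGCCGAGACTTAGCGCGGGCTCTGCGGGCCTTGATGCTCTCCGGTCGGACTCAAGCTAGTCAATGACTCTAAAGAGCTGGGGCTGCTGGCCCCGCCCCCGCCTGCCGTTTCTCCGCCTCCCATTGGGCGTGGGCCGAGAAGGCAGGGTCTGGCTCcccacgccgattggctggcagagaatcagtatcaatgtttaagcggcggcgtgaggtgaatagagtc
Pcdh9: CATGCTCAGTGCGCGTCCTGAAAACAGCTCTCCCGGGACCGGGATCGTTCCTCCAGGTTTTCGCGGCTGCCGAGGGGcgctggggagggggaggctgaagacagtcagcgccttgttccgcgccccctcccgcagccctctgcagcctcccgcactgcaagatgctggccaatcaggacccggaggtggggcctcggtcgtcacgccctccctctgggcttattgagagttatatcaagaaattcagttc
In Pcdh17 the peak covered the 183 bases farthest from the start and ended before it, with a score percentile of 14.1 in WT microglia 2. In Pcdh9 it covered the 77 farthest bases, with a percentile of 36.9 in WT total cells 2. The total cell peaks of Pcdh17 described above begin 2.73 kb behind the start, outside the stretch printed.

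Pcdh7, Pcdh10 and Pcdh19 had peaks in total cells only, but not in every library. Pcdh7 (gene 54216, chr5:57716145-58133236), an adhesion protein that also binds the phosphatase inhibitor SET, had 0 and 1 peaks in 5XFAD total cells and 2 and 3 in WT total cells, against 0 in all microglia libraries (p = 0.143, exact permutation). Pcdh10 (gene 18526, chr3:45378398-45434579), which controls axon growth and synapse elimination, had 0 and 0 peaks in 5XFAD total cells and 3 and 1 in WT total cells, against 0 in microglia (p = 0.429, exact permutation). Both WT total cell libraries had a peak 1.62 kb downstream of its start, at chr3:45380021-45380579, with percentiles of 11.0 and 69.9. Pcdh19 (gene 279653, chrX:133582860-133689044) had 3 and 1 peaks in 5XFAD total cells and 0 and 2 in WT total cells, against 0 in microglia (p = 0.143, exact permutation). Its 5 regions were each in 1 library except chrX:133656035-133656558, which 5XFAD total cells 1 and WT total cells 2 shared.

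Pcdh1, which is expressed in epithelia and vessels as well as brain, was marked in 3 of 4 microglia libraries and all 4 total cell libraries. Pcdh1 (gene 75599, chr18:38185914-38212048) had 0 and 2 peaks in 5XFAD microglia, 1 and 1 in WT microglia, 3 and 2 in 5XFAD total cells, and 1 and 1 in WT total cells (p = 0.486, exact permutation), and the preparations overlapped. The region just outside its lower end, chr18:38185253-38185842, was in 3 of 4 microglia libraries and in 5XFAD total cells 1, whereas chr18:38190496-38190969 inside the gene was in 3 of 4 total cell libraries and no microglia library. Pcdh12 (gene 53601, chr18:38267092-38284401) had 1 peak in WT microglia 2 and 0 elsewhere. The endothelial cadherin Cdh5 had 1 and 2 peaks in 5XFAD microglia, 3 and 2 in WT microglia and 0 in all total cell libraries (p = 0.0286, exact permutation; adjusted p = 0.287). The remaining 4 single genes, Pcdh8, Pcdh18, Pcdh20 and the 620 kb Pcdh11x, had no peak in any library. The same held for 34.0% of all genes and for 13.4% of genes of at least 75.1 kb, a length that only Pcdh11x of the 4 reaches.

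The peaks of the single genes were weak, narrow and mostly inside the genes. The 63 total cell peaks had a median score percentile of 31.9 (1.01 to 92.7), 15 of them above the median of their list, and a median width of 229 bp. The 6 microglia peaks had a median percentile of 27.3 (14.1 to 42.1) and a median width of 454 bp. Merged over libraries, the peaks formed 44 regions, 40 of them with no microglia peak (90.9%, against 33.3% of all 73355 regions). Of the 44, 27 were found in 1 library alone (61.4%, against 37.9% of all regions). Within 2 kb of either end of the genes the difference between preparations was lost: 0 and 2 peaks in 5XFAD microglia, 1 and 3 in WT microglia, 2 and 1 in 5XFAD total cells, and 2 and 3 in WT total cells. Most total cell peaks thus lay in the interior of the genes.

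**Figure D3:**
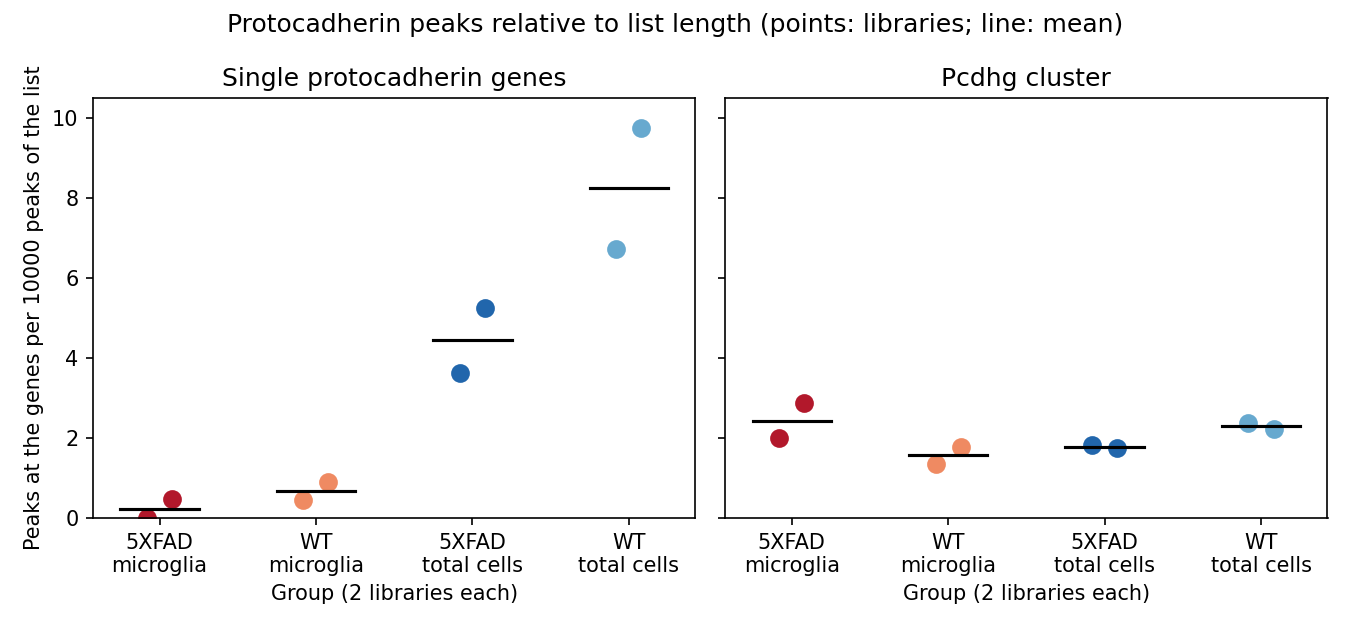
Protocadherin peaks per 10000 peaks of each library's list, for the 12 single genes (left) and the Pcdhg cluster (right), in 5XFAD and WT microglia and 5XFAD and WT total cells; points are libraries and lines are means of 2. At the single genes microglia lie between 0 and 0.896 and total cells between 3.64 and 9.76, whereas at Pcdhg all libraries lie between 1.35 and 2.87.

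Within total cells, WT libraries had more peaks at the single genes than 5XFAD libraries. The 12 and 12 peaks of 5XFAD total cells lay below the 17 and 22 of WT total cells (difference -7.5), although the 5XFAD lists were 32967 and 22807 peaks long against 25271 and 22543 in WT. Both 5XFAD libraries were below both WT libraries at 5 of the 12 single genes, Pcdh9, Pcdh15, Pcdh17, Pcdh10 and Pcdh7, against 3.68% of all protein-coding genes, 6.09% of those with a peak in total cells and 8.10% of those of at least 75.1 kb. The opposite order held for 1 of 12, Pcdh1, against 7.96% of all genes and 13.2% of those with a total cell peak. A permutation of 2 against 2 cannot reach 0.05, so no test was made. Taking the same number of top peaks from each library, the order held at 3 of the genes (Pcdh17, Pcdh10 and Pcdh7, against 5.59% of all genes), and with the higher-scoring 50% of each list it held at 0. Summed peaks at microglial markers were 21 and 13 in 5XFAD total cells and 4 and 8 in WT total cells, those at neuronal markers 8 and 3 in 5XFAD and 12 and 8 in WT, and those at oligodendrocyte markers 13 and 9 in 5XFAD and 5 and 1 in WT. Most of these neuronal peaks were at 1 gene, Map2, with 4 and 3 in 5XFAD total cells and 10 and 7 in WT total cells. The only other neuronal markers with total cell peaks were Syt1 (2 and 0 in 5XFAD, 1 and 1 in WT), Rbfox3 (1 and 0, 1 and 0) and Stmn2 (1 and 0, 0 and 0). Most of the oligodendrocyte marker peaks were at Mbp, with 10 and 8 in 5XFAD and 4 and 1 in WT total cells. The part of these cell type markers in the order of the genotypes was not tested.

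By presence alone, 1 of 69 protocadherin genes, Pcdh10, had a peak in both WT and neither 5XFAD total cell library, against 1.60% of all genes, and 0 were marked in both 5XFAD but no WT library, against 2.86%. In microglia no protocadherin gene was called either way, against 2.81% of all genes for 5XFAD alone and 0.498% for WT alone. Neither was any protocadherin gene ordered by genotype in its number of peaks in microglia, where both 5XFAD libraries exceeded both WT libraries at 8.80% of all genes and fell below them at 1.06%. Leaving out 1 library moved these small counts. Genes of 5XFAD microglia alone numbered 1 without WT microglia 2, genes of WT microglia alone 1 without 5XFAD microglia 2 and 2 without WT microglia 1, and genes of WT total cells alone 2 without 5XFAD total cells 2. Genes of 5XFAD total cells alone numbered 14 without 5XFAD total cells 1, all through the 1 Pcdha peak described below, and 1 without WT total cells 2.

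The clusters on chromosome 18 were marked in 3 different ways. The 22 Pcdhb genes had no peak in any of the 8 libraries. They lay in a stretch of 497 kb without a peak, chr18:37145564-37642645, and 762 of the 73334 gaps between neighbouring regions of the genome (1.04%) were at least as long, the median gap being 7.36 kb. The Pcdha cluster had 1 peak in 1 library, 5XFAD total cells 2, at chr18:37145301-37145563 behind the start of Pcdhac2, the last of its variable genes, with a score percentile of 9.54. All 14 Pcdha starts lay in another peak-free stretch of 343 kb (1.52% of gaps were at least as long). All 14 Pcdha genes count as having a peak in that library because each runs through it to the shared constant exons.

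The Pcdhg cluster was marked in all libraries. It held 6 and 12 peaks in 5XFAD microglia, 3 and 6 in WT microglia, 6 and 4 in 5XFAD total cells, and 6 and 5 in WT total cells, or 6.75 ± 3.77 in microglia against 5.25 ± 0.957 in total cells (SD, n = 4 each). The preparations overlapped, and no Pcdhg gene reached an unadjusted p below 0.286 (exact permutation). Per Mb it held 16.3 to 65.2 peaks in microglia and 21.7 to 32.6 in total cells, against 16.4 to 30.6 and 16.8 to 24.8 for all protein-coding windows. The 20 protocadherin genes with a peak in all 8 libraries, against 26.7% of all genes, were all Pcdhg genes that run through the same peaks, so they are not 20 separate observations. Pcdhgc5 was the exception. The 26 with none, against 34.0% of all genes, were the 22 Pcdhb genes with Pcdh8, Pcdh18, Pcdh20 and Pcdh11x; without 5XFAD total cells 2 they numbered 40, the 14 Pcdha genes included.

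**Figure D4:**
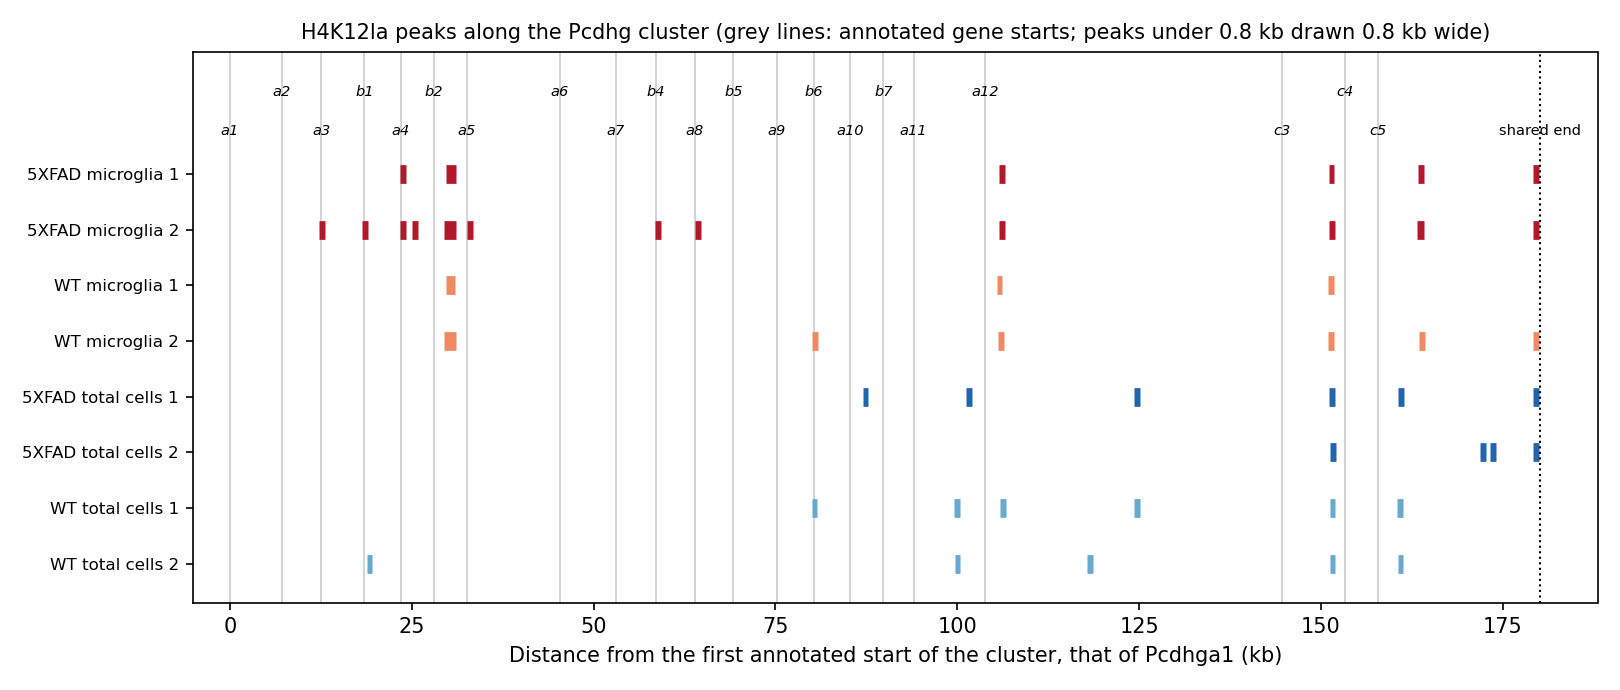
H4K12la peaks along the Pcdhg cluster in the 8 libraries (rows), by distance from the first gene's start in kb; grey lines mark the annotated starts of the Pcdhg genes and each bar is 1 peak. One region near 151 kb is marked in all 8 libraries and one near 29.4 kb in the 4 microglia libraries alone.

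The regions of the cluster differed in which libraries marked them. Of 22 Pcdhg regions, 9 had no total cell peak (40.9%, against 31.3% of all regions) and 9 had no microglia peak (40.9%, against 33.3%). Peaks of both preparations were in 4 (18.2%, against 35.4%), and 12 were in 1 library alone (54.5%, against 37.9%). One was in all 4 microglia libraries and no total cell library, against 4.51% of all regions: chr18:37691216-37692892, 1.36 kb downstream of the start of Pcdhgb2. This region also lies within 2 kb before the start of Pcdhga5. Its score percentiles were 78.6 and 78.1 in 5XFAD microglia and 66.7 and 79.0 in WT microglia, above the median of each list. No region was in all 4 total cell libraries and no microglia library, against 1.34% of all regions. Leaving out WT microglia 1 or WT total cells 1 gave 2 microglia regions in place of 1, and leaving out a total cell library gave 1 to 3 total cell regions, the 3 without 5XFAD total cells 2.

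One region was in all 8 libraries, against 7.19% of all regions: chr18:37812929-37813671, 6.52 kb downstream of the start of Pcdhgc3, one of the C-type genes that are mostly expressed without the random choice made among the other isoforms. The region also lies within 2 kb before the start of Pcdhgc4, which is nearer. Its score percentiles were 9.78 and 13.0 in 5XFAD microglia, 42.1 and 16.1 in WT microglia, 73.3 and 73.4 in 5XFAD total cells, and 87.3 and 94.4 in WT total cells. It ranked below the median of its list in every microglia library and above it in every total cell library. Percentiles rank a peak within its own list only.

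At the shared end of the cluster, chr18:37840915-37841776 was in both 5XFAD microglia libraries, in WT microglia 2, in both 5XFAD total cell libraries and in neither WT total cell library. It ended 97 bp before the end of the Pcdhg genes and was the 1 Pcdhg region in both 5XFAD and neither WT total cell library, a call made for 5.47% of all regions. Its percentiles were 71.3 and 75.0 in 5XFAD microglia, 39.9 in WT microglia 2, and 41.5 and 50.7 in 5XFAD total cells. All 21 Pcdhg genes run through it. Pcdhgc3, Pcdhgc4 and Pcdhgc5, the last to start and sharing peaks, were the 3 cluster genes with more peaks in both 5XFAD than in both WT total cell libraries. That order held for 7.96% of all genes and 13.2% of those with a total cell peak. The reverse was found at chr18:37761686-37761900, 5.91 kb downstream of the start of Pcdhga11, in both WT and neither 5XFAD total cell library, a call made for 3.30% of all regions. In microglia, chr18:37685285-37685962 at the start of Pcdhga4 was in both 5XFAD and neither WT library (6.11% of all regions), with percentiles of 0.805 and 29.9. No protocadherin region was in both WT and neither 5XFAD microglia library, against 1.23% of all regions.

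The peaks at the starts of Pcdhg genes were mainly those of 1 library. In the first 500 bp of the genes, which make up 5.71% of the cluster window, 5XFAD microglia 2 had 6 peaks, at Pcdhga3, Pcdhgb1, Pcdhga4, Pcdhga5, Pcdhgb4 and Pcdhga8. 5XFAD microglia 1 had 1 at Pcdhga4, WT microglia 2 and WT total cells 1 had 1 each at Pcdhgb6, and the other 4 libraries had 0. The 6 peaks ranked low, with percentiles of 1.89 to 32.9, and came from the longest list, of 41783 peaks. With the same number of top peaks taken from each library, 0 of the 6 remained, whereas a score of at least 50 kept 5 of them. At that same number of top peaks the whole cluster had 3 and 2 peaks in 5XFAD microglia, 3 and 3 in WT microglia, 4 and 4 in 5XFAD total cells, and 6 and 5 in WT total cells. With equal numbers of peaks every microglia library had fewer Pcdhg peaks than any total cell library. In this setting 18 Pcdhg genes, which share these peaks, reached p = 0.0286 (exact permutation). The share of all genes below 0.05 with equal numbers of peaks is not given here, so the 18 cannot be set against it.

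The genes that control the clusters were widely marked. Of 22 regulators (CTCF, cohesin and its loaders, DNA methyltransferases, TET enzymes and silencing factors), 59.1 to 95.5% had a peak in microglia libraries and 59.1 to 90.9% in total cell libraries, against 42.4 to 56.1% and 44.6 to 51.9% of all genes. A peak in all 8 libraries was found at 8 of the 22 (36.4%), against 26.7% of all genes. Ctcf, the insulator protein that anchors promoter choice, had 1 and 4 peaks in 5XFAD microglia, 0 and 1 in WT microglia and 0 in all total cell libraries (p = 0.143, exact permutation). Smchd1, which silences the clusters, had 0 and 2 peaks in 5XFAD microglia, 0 and 1 in WT microglia, 4 and 3 in 5XFAD total cells, and 5 and 5 in WT total cells (p = 0.0286, exact permutation; adjusted p = 0.287), so every total cell library had more. It was the 1 of 22 regulators below the unadjusted threshold with fewer peaks in microglia, against 3.43% of all genes tested, and 0 had more, against 6.51%. The cohesin subunit Rad21 had 2 and 3 peaks in 5XFAD microglia, 0 and 2 in WT microglia, 3 and 1 in 5XFAD total cells and 0 and 0 in WT total cells.

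Of 26 partners and processing enzymes of protocadherins, 80.8 to 84.6% had a peak in microglia and 65.4 to 76.9% in total cells, against 42.4 to 56.1% and 44.6 to 51.9% of all genes. At the unadjusted threshold 4 had more and 1 had fewer peaks in microglia, where 6.51% of all genes tested had more and 3.43% had fewer. Ptk2b, a focal adhesion kinase relative that clustered protocadherins inhibit, had 12 and 13 peaks in 5XFAD microglia, 6 and 9 in WT microglia, 4 and 0 in 5XFAD total cells, and 2 and 1 in WT total cells (p = 0.0286, exact permutation; adjusted p = 0.287). Its paralog Ptk2 had 1 and 1 peaks in 5XFAD microglia, 1 and 1 in WT microglia, 2 and 3 in 5XFAD total cells, and 6 and 3 in WT total cells, with the same p. The kinases were thus ordered in opposite directions. The other 3 with more peaks in microglia were Abl1, Cdc42 and Psenen, a subunit of the gamma-secretase that cuts protocadherins. Cdc42 and Psenen had peaks in all 4 microglia libraries and no total cell library, a call made for 1.20% of all genes.

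Among 47 other cadherins, 21.3 to 31.9% had a peak in microglia and 31.9 to 46.8% in total cells, against 42.4 to 56.1% and 44.6 to 51.9% of all genes, and 14 (29.8%) had none anywhere, near the 34.0% of all genes. At the unadjusted threshold 5 had fewer and 3 had more peaks in microglia, where 3.43% of all genes tested had fewer and 6.51% had more. The 5 with fewer were Cdh2, Cdh13, Cdh20, Fat1 and Fat4, and the 3 with more were Cdh5, Cdh23 and Fat3. Cdh20 had 4 and 5 peaks in 5XFAD total cells and 7 and 7 in WT total cells, against 0 in microglia, and Fat1 had 2 and 2 in 5XFAD and 4 and 3 in WT, also against 0 in microglia. Cdh13 had 0 and 0 peaks in 5XFAD microglia, 1 and 2 in WT microglia, 5 and 3 in 5XFAD total cells, and 10 and 8 in WT total cells. The preparations did not overlap at any of these genes. Of the 4 other neuronal self-recognition receptors, Sdk1 had 14 and 19 peaks in 5XFAD microglia, 11 and 16 in WT microglia, 5 and 6 in 5XFAD total cells, and 3 and 1 in WT total cells (p = 0.0286, exact permutation; adjusted p = 0.287), an order opposite to that of Pcdh9. Dscaml1 was ordered like Sdk1, and Dscam and Sdk2 did not reach the unadjusted threshold.

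**Figure D5:**
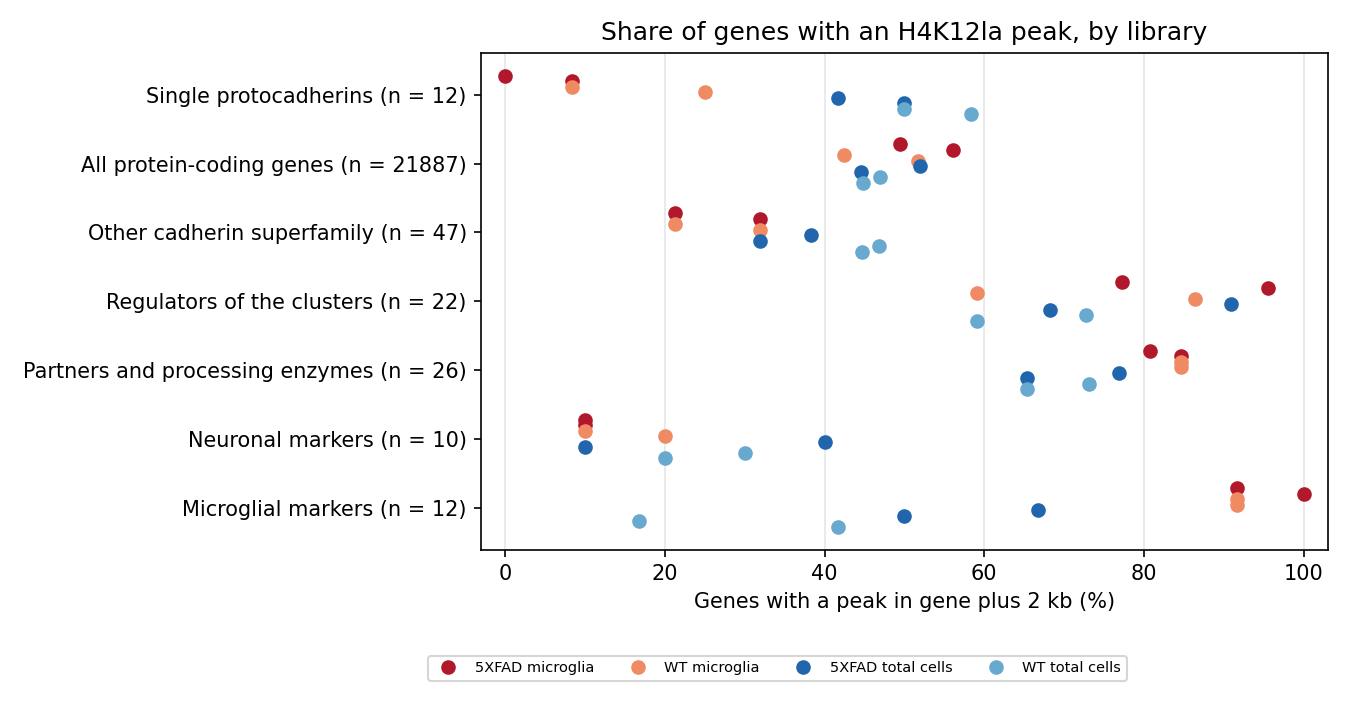
Percent of genes with an H4K12la peak within the gene or 2 kb on either side, by gene group (rows, with the number of genes) and library; points are libraries, coloured by group. Single protocadherins have 0 to 25% in microglia and 41.7 to 58.3% in total cells, against 42.4 to 56.1% and 44.6 to 51.9% of all genes.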

How the data were processed

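Per the labels' protocols, H4K12la was profiled by CUT&Tag and sequenced as paired-end reads. Tools named in the submitters' processing notes are fastp 0.19.6, deepTools and Bowtie2, with build GRCm38 (mm10); how peaks were called, and against what control, is not given in the sources used here. For each library the authors deposited 1 list of peaks with chromosome, start, end and a whole-number score whose unit is not stated. The lowest deposited score was 20 in every list, so weaker peaks are not listed, and a longer list can come from deeper sequencing, which is unknown here. Starts were taken as counted from 0 and are printed counted from 1.

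Gene positions came from RefSeq (GRCm38.p6) for 21887 protein-coding genes; exons and UTRs were not used. Peaks overlapping a gene plus 2 kb on both sides by 1 base or more were counted with Python 3.11.15, numpy 2.4.6, pandas 2.3.3 and scipy 1.17.1. Regions were made by merging all lists. Groups were compared by presence calls and, per gene, by exact two-sided permutation of the number of peaks with Benjamini-Hochberg adjustment over the 14445 genes with a peak. Overlap counts were checked by direct search on the deposited lists, and the test on simulated data. Every single protocadherin was named, a cluster gene where a peak lay in its own stretch, and other genes from lists of regulators, partners, cadherins, self-recognition receptors and cell type markers. Members and lists were chosen with earlier results of these data known. Readthrough gene models that span the clusters and the pseudogene Pcdhgb8 were not counted as members.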

Additional observations from a re-analysis of the deposited data

Results flagged for a closer look

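In the Pcdhg cluster, genotypes were ordered oppositely in the 2 preparations when peaks were given per 10000 peaks of the list. There were 2.0 and 2.87 in 5XFAD microglia against 1.35 and 1.79 in WT microglia (difference 0.865), and 1.82 and 1.75 in 5XFAD total cells against 2.37 and 2.22 in WT total cells (difference -0.51). Every library followed the order of its group, and the difference between the preparations was not tested. In peak numbers without scaling the genotypes overlapped in both preparations. With the same number of top peaks from each library the order in microglia was lost, with 3 and 2 peaks in 5XFAD microglia against 3 and 3 in WT microglia, and total cells had 4 and 4 in 5XFAD against 6 and 5 in WT.

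In microglia, WT microglia 2 stood apart from the other 3 libraries at Pcdh17, with 1 peak against 0, and at Pcdh12, with 1 peak against 0. Both peaks ranked below the median of their list, with score percentiles of 14.1 at Pcdh17 and 36.0 at Pcdh12. The check takes such a gap to arise by chance in about 1 in 20 groups, and 18 sets of values were examined. That rate was not worked out for counts this low, where 1 peak is enough to give a gap.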

How the results depend on the processing

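Counting a gene alone, the gene plus 5 kb or peak midpoints moved no count of protocadherin genes by more than 1.5 times. Within 2 kb of both gene ends, the mean difference in distinct protocadherin peaks (-13 in the main values, microglia minus total cells) reversed to 2.75, since that window leaves out gene interiors; genes of total cells alone numbered 0, of 5XFAD total cells alone 18, in all libraries 1, in none 41, below the unadjusted p threshold 0, and ordered WT above 5XFAD 1. With the higher-scoring 50% of peaks the difference was -4.25, and these counts were 1 for total cells alone, 7 for 5XFAD microglia alone, 1 for 5XFAD and 0 for WT total cells alone, 7 in all libraries, 42 in none, 1 below the threshold and 0 ordered, with 1 region of total cells alone. With a score of at least 50 the difference was -0.75, and the counts were 1 for total cells alone, 1 for 5XFAD and 0 for WT total cells alone, 41 in none, 1 below the threshold and 0 ordered. With the same number of peaks per library, 21 genes, 18 of them Pcdhg genes sharing peaks, were below the threshold and 3 were ordered. The share of all genes below the threshold in that setting is not given here. The 18 genes of 5XFAD total cells alone and the 7 of 5XFAD microglia alone were Pcdhg genes. They share the region chr18:37840915-37841776 at the end of the cluster, so they are not separate observations. The shares of all genes so called under these settings are not given here. The cause of the moves under the score settings was not tested.

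Leaving out 1 library at a time gave a difference of -14.92 to -11.08, 1 to 4 genes below the threshold, 2 to 3 of total cells alone, 0 to 1 of 5XFAD and 0 to 2 of WT microglia alone, 0 to 14 of 5XFAD and 1 to 2 of WT total cells alone, 20 to 21 in all libraries, 26 to 40 in none, 1 to 2 regions of microglia alone and 0 to 3 of total cells alone. The labels do not say whether the replicate numbers pair libraries of different groups. Correlations of deviations between same-numbered libraries ran from -0.0741 to 0.156 over 6 pairs of groups. With 2 libraries per group and few peaks per gene, these values cannot decide whether libraries were paired. With the replicate block, 0 genes were below the threshold, the smallest p it allows being 0.125. The counts ordered by genotype and the regions were varied after seeing the data. Depth is unknown, so a missing peak cannot be told from one below the lowest listed score.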

Other observations

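Markers of the other cell types that the preparations could hold were also counted, as summed peaks per library. Over 8 astrocyte markers there were 15 and 20 peaks in 5XFAD microglia, 14 and 17 in WT microglia, 16 and 10 in 5XFAD total cells, and 8 and 6 in WT total cells. Over 8 oligodendrocyte markers the 5XFAD microglia libraries had 14 and 19 peaks and the WT microglia libraries 10 and 9. The pair of oligodendrocyte precursor markers, Pdgfra and Cspg4, had 0 to 2 peaks in every library. Over 7 vascular markers there were 15 and 21 peaks in 5XFAD microglia, 14 and 18 in WT microglia, 14 and 11 in 5XFAD total cells, and 3 and 6 in WT total cells. Over 6 markers of other leukocytes there were 1 and 2 peaks in 5XFAD microglia, 2 and 5 in WT microglia, 1 and 0 in 5XFAD total cells, and 0 and 1 in WT total cells. In total cells the summed peaks of both 5XFAD libraries exceeded those of both WT libraries at astrocyte, oligodendrocyte and vascular markers, as at microglial markers. This is the reverse of their order at the single protocadherin genes. The astrocyte, oligodendrocyte and vascular orders rested largely on 1 gene per list. These were Slc1a3 (10 and 5 in 5XFAD, 3 and 1 in WT), Mbp (10 and 8, 4 and 1) and Pecam1 (10 and 8, 1 and 2). Of the other markers in those lists, only Flt1 (3 and 2, 1 and 0) had both 5XFAD above both WT total cell libraries.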
